A study of Mus musculus with 16 samples.

Results

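The Hox genes encode homeodomain transcription factors and lie in 4 clusters, HoxA to HoxD. Taking every protein-coding gene whose symbol is Hox followed by a cluster letter and a paralogue number gave 39 genes of the 46078 in the count files, 11 in HoxA, 10 in HoxB, 9 in HoxC and 9 in HoxD. Along each cluster the paralogue number runs from the genes used towards the head of the embryo to those used towards its tail, so that the set of Hox genes a tissue expresses marks its place on the head-to-tail axis. Hox proteins bind DNA together with cofactors of the TALE homeodomain class (Pbx, Meis). In the gut they are expressed regionally in epithelium and, more strongly, in the surrounding mesenchyme, under the influence of Cdx factors, retinoic acid, Wnt signalling and the Polycomb and trithorax chromatin regulators.

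RNA was sequenced after ribosomal RNA depletion from 16 libraries of mouse intestinal organoids on a C57BL6 background, cultures of crypt epithelium grown in Matrigel with EGF, R-spondin and Noggin. Wild type organoids carried the Lgr5-EGFP-IRES-CreERT2 allele and were transduced with mCherry. The Apc mutant organoids carried Apc fl/fl, the floxed alleles of the Wnt pathway tumour suppressor Apc, with Cre driven by Lgr5 or, for some mice, Villin. They were recombined in culture with 4OH-Tamoxifen and transduced with Venus, so label and fluorescent construct cannot be told apart. The labels name no segment of intestine and do not say how many mice or lines lie behind a group.

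On day 2 there were 2 untreated mutant and 2 untreated wild type libraries. The other 12 libraries came from organoids given conditioned medium (CM), supernatant of organoid cultures with fresh growth factors, 3 for each genotype label on day 2 and 3 for each on day 4. All 12 carry a treatment label of medium from Apc mutant organoids, while their titles hold either APCCM or WTCM. Those titles follow the genotype characteristic and could stand for the sequenced organoids or for the culture that supplied the medium, and the growth protocol names medium from both kinds of culture. The design text of the series also lists other days and replicate numbers than the sample labels, which were followed. Every comparison of labels within CM may therefore compare genotypes or media, which cannot be told apart. The genotype characteristic of these 12 is called a label here, because their levels of Notum, a secreted Wnt antagonist induced by Wnt signalling, do not separate the genotypes: it stood at 320.7 to 391.9 CPM (the count of a gene scaled to a common library total, as counts-per-million) in the untreated mutant libraries and at no more than 0.925 CPM in all 14 others. Apc itself was counted at 272.9 to 309.9 CPM in untreated mutant, 77.7 to 83.8 in untreated wild type and 224.0 to 267.4 CPM in CM libraries. A count over the whole gene does not resolve the floxed exons.

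Each library held between 8325979 and 29152692 reads assigned to genes. No CM library had fewer than 17986815 and no untreated library more than 13027701. The untreated and CM libraries also differed in ways their labels do not describe. The non-coding RNA Gm26917 was at 38.7 to 95.2 CPM without CM and at 76850 to 115100 CPM with it. Xist was at 2175 to 4614 CPM without CM and at 1.12 to 11.0 CPM with it, and the Y-linked Ddx3y at no more than 0.183 CPM against 80.6 to 122.2 CPM. Medium, organoid line and library preparation therefore cannot be told apart between those sets, and their Hox levels are given side by side without a direct test. Only the interaction of label and medium spans both sets, and it carries the same limit. One library stood apart from its replicates across all genes, wild type-labelled CM day 4 replicate 1, at a chi-square per degree of freedom of 43.9 and 46.4 against its replicates where no other replicate pair exceeded 6.55. Nothing in the labels says that replicates were separate cultures or animals, so every p-value below measures the spread between these libraries, which may be technical.

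Hox expression was low and concentrated in HoxA. Of the 39 genes, 14 had no count in any of the 16 libraries: Hoxa11, 4 genes of HoxB (Hoxb1, Hoxb7, Hoxb9 and Hoxb13), 5 of HoxC (Hoxc8 to Hoxc12) and 4 of HoxD (Hoxd1, Hoxd10, Hoxd11 and Hoxd12). Another 14 had between 1 and 81 counts over all libraries and never exceeded 0.640 CPM. The remaining 11 passed the filter on low counts and were tested, 9 of them in HoxA, including Hoxa2, Hoxa3, Hoxa4, Hoxa5, Hoxa7, Hoxa9, Hoxa10 and Hoxa13, beside Hoxb3 and Hoxd4. Among those, Hoxa7, Hoxa9 and Hoxa10 passed only because of the untreated mutant libraries, so they had to differ and the count of called genes is not read as support.

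Summed over all 39 genes, the Hox level was 107.0 and 108.3 CPM in the untreated mutant libraries and 0.0917 and 0.3603 CPM in untreated wild type, where only 4 Hox reads were counted in all. In the 12 CM libraries the sum ranged from 7.29 to 10.8 CPM with a median of 9.05. The untreated mutant libraries were thus the highest of the 16 and the untreated wild type libraries the lowest, with every CM library between them. HoxA supplied 99.4% of the Hox reads in untreated mutant and between 75.0% and 79.8% in the CM groups. HoxB and HoxD were nearly silent without CM, with 1 HoxB read in each genotype and 2 HoxD reads, both in a mutant library, and had medians of 0.642 and 1.03 CPM in the CM libraries. HoxC was at 0.690 and 0.461 CPM in untreated mutant, at 0 in both untreated wild type libraries and at 0.0976 to 0.371 CPM with CM. The untreated wild type libraries held 10910106 and 8325979 gene counts, and a group total of 0 there allows a level of up to 0.156 CPM for a gene (3 counts over both libraries, counting error only).

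**Figure D1:**
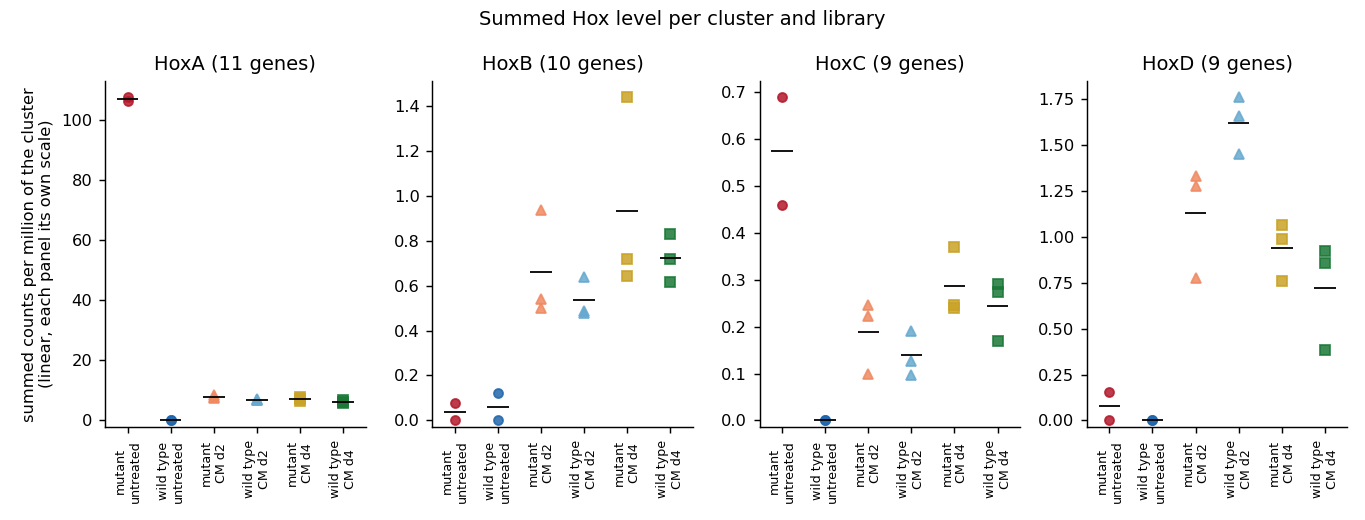
Summed CPM of each Hox cluster in each of the 16 libraries, with one point per library, a line at the group mean and a separate linear scale in each panel. HoxA reached 106.3 and 107.6 CPM in the untreated mutant libraries and stayed at or below 8.37 CPM elsewhere, while HoxD was highest in the wild type-labelled CM libraries of day 2.

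The comparison of untreated mutant with untreated wild type organoids asks which Hox genes accompany the loss of Apc. A block of 3 neighbouring genes, Hoxa7, Hoxa9 and Hoxa10, was counted strongly in the mutant and hardly at all in the wild type, and together made up 94.3% of the 2650 Hox reads of the mutant. Smaller differences were found in Hoxa2, Hoxa3, Hoxa5 and Hoxa13. In all, 8 of the 11 tested genes were higher in the mutant and 0 lower in the quasi-likelihood test of edgeR (p-values adjusted after Benjamini and Hochberg across 16510 genes, threshold 0.05), and DESeq2 called 7. In this comparison 62.5% of all tested genes were called, and those called higher in the mutant were 32.4% of all tested genes. A call is therefore common here, and the sizes of the differences are given gene by gene. Bulk RNA does not tell more RNA per cell from more cells of one kind.

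Hoxa9, at chr6:52223100-52231089 on the minus strand of GRCm38, is a posterior-type factor known as a driver of leukaemia when overexpressed together with Meis1. It had 650 and 686 reads in the mutant libraries, or 56.0 and 52.7 CPM, and 0 and 0 in the wild type libraries. Its mean of 54.4 CPM ± 2.40 (SD, n = 2) was at least 348-fold higher than the wild type level. That bound takes 3 reads over both wild type libraries as the limit. A p-value is not given, because only the untreated mutant libraries carried Hoxa9 past the filter. No other Hox gene had as many reads in any group.

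Hoxa10, the next gene at chr6:52231197-52240854, is best known for patterning the uterus and the lumbar vertebrae. It had 294 and 348 reads in the mutant libraries (25.4 and 26.7 CPM) and 0 and 1 in wild type. The mean was 26.0 CPM ± 0.963 (SD, n = 2), and its p-value is left out for the same reason as that of Hoxa9. Summed reads over summed library totals gave a ratio of 502 to wild type, with an exact 95% counting interval of 89.7 to 19840. The groups did not overlap, and the width of that interval comes from the single wild type read.

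Hoxa7, at chr6:52214491-52221854 on the other side of Hoxa9, patterns thoracic vertebrae in the embryo. It was counted 247 and 274 times in the mutant (21.3 and 21.03 CPM) and 0 times in both wild type libraries. Its mean of 21.2 CPM ± 0.188 (SD, n = 2) was at least 136-fold higher, and its p-value is likewise left out. Per kilobase of merged exon, which allows genes to be ranked against each other, the mutant levels were 9.74 ± 0.430 CPM for Hoxa9, 7.96 ± 0.294 for Hoxa10 and 7.36 ± 0.0654 for Hoxa7 (SD, n = 2). Divided by the longest transcript instead, they were 16.8, 10.2 and 10.4 CPM per kilobase, so that Hoxa9 led by either length and the order of Hoxa10 and Hoxa7 depended on it.

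The block had sharp edges. Hoxa11, the next gene beyond Hoxa10 and a regulator of limb and uterus development, had 0 reads in all 16 libraries. On the anterior side Hoxa6 had 3 and 6 reads in the mutant and 0 in wild type, and was too low to be tested. Per kilobase, Hoxa6 was at 0.412 CPM and Hoxa5 at 1.06 CPM in the mutant, where the neighbouring Hoxa7 was at 7.36.

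The windows of 250 bases ahead of the RefSeq start sites of the 3 abundant genes and of silent Hoxa11 are shown because this stretch holds the edge of the block. RefSeq's table (GRCm38.p6) had windows for 22 of the 39 genes, 24 in all. All 5 shown lie on the minus strand, are written 5′ to 3′ as transcribed, and follow each other from Hoxa7 outwards, with Hoxa10 having an inner and an outer start. Capitals mark any match, on either strand, to one of 3 words. The first is the TATA box, searched as TATAAA. Another is the core of the TCF/LEF sites through which Wnt signalling acts, searched as CTTTGA. The last is a site bound by Cdx factors, searched as TTTATG.
Hoxa7, chr6:52218574-52218823: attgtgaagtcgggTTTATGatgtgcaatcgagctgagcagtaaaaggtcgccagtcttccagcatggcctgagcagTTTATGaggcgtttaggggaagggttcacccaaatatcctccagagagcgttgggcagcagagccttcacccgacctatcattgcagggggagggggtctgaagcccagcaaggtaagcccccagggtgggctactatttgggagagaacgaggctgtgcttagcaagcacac
Hoxa9, chr6:52227371-52227620: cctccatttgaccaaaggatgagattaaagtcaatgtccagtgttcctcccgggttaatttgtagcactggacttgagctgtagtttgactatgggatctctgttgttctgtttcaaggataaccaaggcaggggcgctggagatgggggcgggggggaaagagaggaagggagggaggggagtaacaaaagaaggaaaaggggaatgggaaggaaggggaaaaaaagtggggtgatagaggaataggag
Hoxa10, inner start, chr6:52234940-52235189: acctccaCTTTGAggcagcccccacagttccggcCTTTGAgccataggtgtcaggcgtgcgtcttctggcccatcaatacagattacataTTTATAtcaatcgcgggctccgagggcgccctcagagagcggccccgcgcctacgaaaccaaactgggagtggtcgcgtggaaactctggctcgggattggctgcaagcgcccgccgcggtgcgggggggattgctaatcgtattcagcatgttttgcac
Hoxa10, outer start, chr6:52240855-52241104: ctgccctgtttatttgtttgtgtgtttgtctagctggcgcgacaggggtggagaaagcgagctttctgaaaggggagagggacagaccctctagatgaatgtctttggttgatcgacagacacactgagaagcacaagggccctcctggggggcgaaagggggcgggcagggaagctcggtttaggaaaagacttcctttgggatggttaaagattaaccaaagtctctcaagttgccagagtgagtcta
Hoxa11, chr6:52245811-52246060: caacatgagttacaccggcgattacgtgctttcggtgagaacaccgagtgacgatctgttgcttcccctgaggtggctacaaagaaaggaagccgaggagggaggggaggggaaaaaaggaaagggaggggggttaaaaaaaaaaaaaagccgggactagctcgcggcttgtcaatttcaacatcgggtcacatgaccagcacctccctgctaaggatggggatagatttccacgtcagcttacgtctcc
The Hoxa7 window held 2 Cdx matches, the inner Hoxa10 window 1 TATA match and 2 TCF/LEF matches, and the other windows none of the 3 words. Among 32851 windows of this length over all genes, 12.4% held the TATA word, 13.8% the TCF/LEF word and 10.8% the Cdx word, so such matches are common and describe these letters only. CpG dinucleotides, which are dense where Polycomb proteins tend to bind, numbered 7 in the Hoxa7 window, 3 in that of Hoxa9, 20 and 7 in those of Hoxa10 and 13 in that of Hoxa11. The median was 12.5 over the 24 Hox windows and 6 over all windows, and the strongly counted Hoxa9 had fewer than silent Hoxa11.

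**Figure D2:**
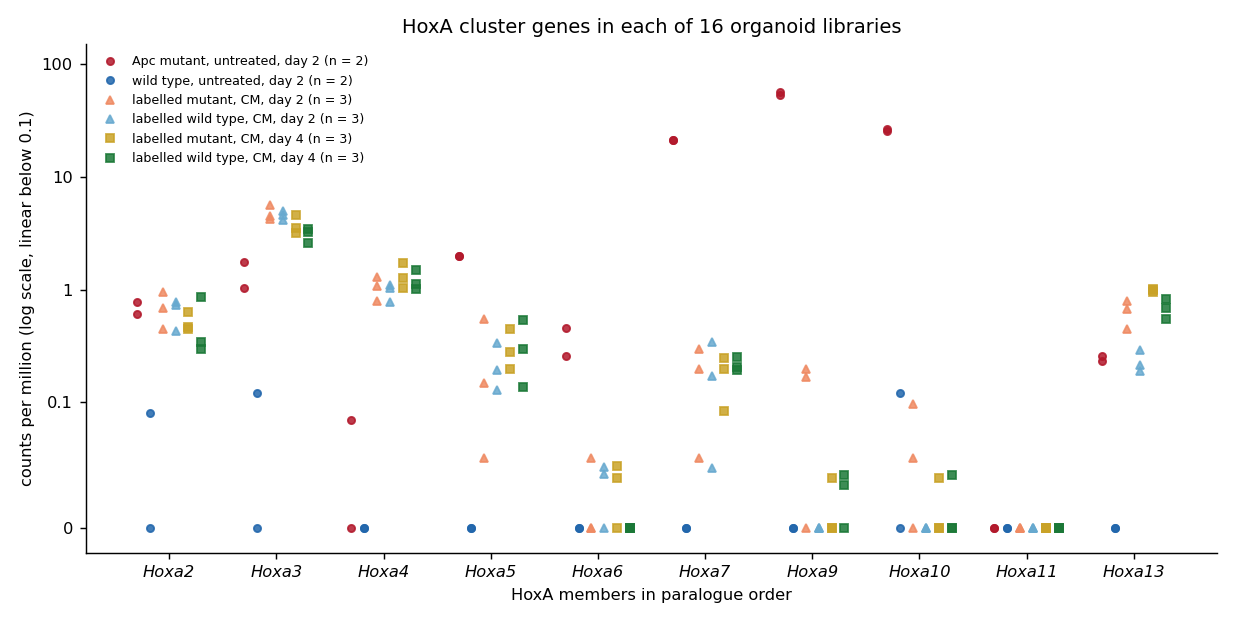
CPM of HoxA genes in each of the 16 libraries, on a log axis that is linear below 0.1, with colours and shapes for the 6 groups (CM, conditioned medium). Hoxa7, Hoxa9 and Hoxa10 stand at 21.03 to 56.0 CPM in the untreated mutant libraries and at or below 0.342 CPM in every other library, while Hoxa3 and Hoxa4 are highest in the CM libraries.

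The other HoxA genes called in the mutant had at most 49 reads each there. Hoxa5, which patterns lung, gut and cervical vertebrae, had 23 and 26 reads against 0 and 0. Its 1.99 CPM was at least 12.8-fold higher (adjusted p = 5.30e-05, edgeR). Hoxa3, needed for thymus and parathyroid formation, had 12 and 23 reads against 0 and 1, a ratio of 27.3 with an exact interval of 4.595 to 1110 (adjusted p = 8.04e-05, edgeR). Both genes were thus separated from wild type, though by far fewer reads than Hoxa7, Hoxa9 and Hoxa10.

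Hoxa2, which sets the identity of the second pharyngeal arch, was counted 7 and 10 times against 1 and 0, a ratio of 13.3 with an exact interval of 2.08 to 555 (adjusted p = 0.0111, edgeR). Hoxa13, the most posterior gene of the cluster and a marker of hindgut, had 3 and 3 reads against 0 and 0, at least 1.56-fold higher (adjusted p = 0.0205, edgeR). These last calls rest on few reads: without wild type replicate 5 Hoxa2 had an adjusted p of 0.0701, and Hoxa13 missed the threshold without wild type replicate 4 (0.123) or 5 (0.0741), by DESeq2 (0.0522) and in a fit of only the groups compared (0.0752), all in models over the full gene table.

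Hoxa4, Hoxb3 and Hoxd4 had no more than 2 reads in the mutant libraries and 0 in wild type, too few for a direction. Outside HoxA the largest total in the mutant was that of Hoxc6, with 6 and 4 reads against 0 and 0, which was not tested. HoxC otherwise contributed 2 reads of Hoxc4 and 1 each of Hoxc5 and Hoxc13, and no other gene of HoxB or HoxD was counted in the mutant.

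Genes lying within and beside HoxA moved little. Skap2 and Snx10, the nearest coding genes beyond the anterior end of the cluster, were higher by a log2 change of 0.34 ± 0.083 (SE) and 0.50 ± 0.12 in the mutant (adjusted p = 0.000952 and 0.000601, edgeR). Hibadh, beyond Evx1 at the other end, was lower, at a log2 change of -0.36 ± 0.070 (SE, adjusted p = 7.62e-05), and the homeobox gene Evx1 itself had 2 reads in the mutant and none in wild type. The fitted changes of these 3 neighbours were no larger than 0.50 on the log2 scale, whereas the smallest bound or ratio among Hoxa7, Hoxa9 and Hoxa10 was 136-fold.

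Non-coding genes inside HoxA stayed near 0. Hotairm1, an antisense RNA at the anterior end, had 6 reads in the mutant and 1 in wild type, Hoxaas3 had 4 and 0, and Gm15050 had 9 and 0, while Hoxa11os had 0 in both. Mir196b also had 0 in both, but it lies wholly within exons of Hoxa9 on the same strand. Reads there could be counted as ambiguous or for Hoxa9, so that 0 does not show the level of Mir196b. The setting for strand in the authors' counting is not given in the sources used here. Exons of Hoxaas3 cover 20.4% of the exon bases of Hoxa7 on the opposite strand, and Mir196b covers 1.52% of those of Hoxa9, whereas Hoxa5, Hoxa10 and Hoxa13 share no exon base with another gene. Of all 50-base words in the transcripts of Hoxa7, Hoxa10, Hoxa5 and Hoxa13 none occurs in another gene, and 0.646% of those of Hoxa9 do, all in Mir196b, so stretches of that length are nearly all unique in these genes. In Hoxa2 12.8% of the words are shared with Gm28308 and in Hoxa3 7.42% with 10 other genes, and their reads are less certain.

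Flanks of the other clusters held 1 larger change, outside the Hox genes. Calcoco1, beside HoxC and encoding a receptor for selective autophagy, was at 62.6 CPM ± 6.97 in the mutant and 14.9 CPM ± 2.17 in wild type (SD, n = 2), a log2 change of 1.89 ± 0.11 (SE) at an adjusted p of 5.14e-14 by edgeR. Mtx2 and Lnpk beside HoxD changed by -0.67 and -0.68, and Cbx5 beside HoxC and Hnrnpa3 beside HoxD by 0.38 each on the log2 scale. The long non-coding RNA Hotair of HoxC had 0 reads in untreated libraries.

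**Figure D3:**
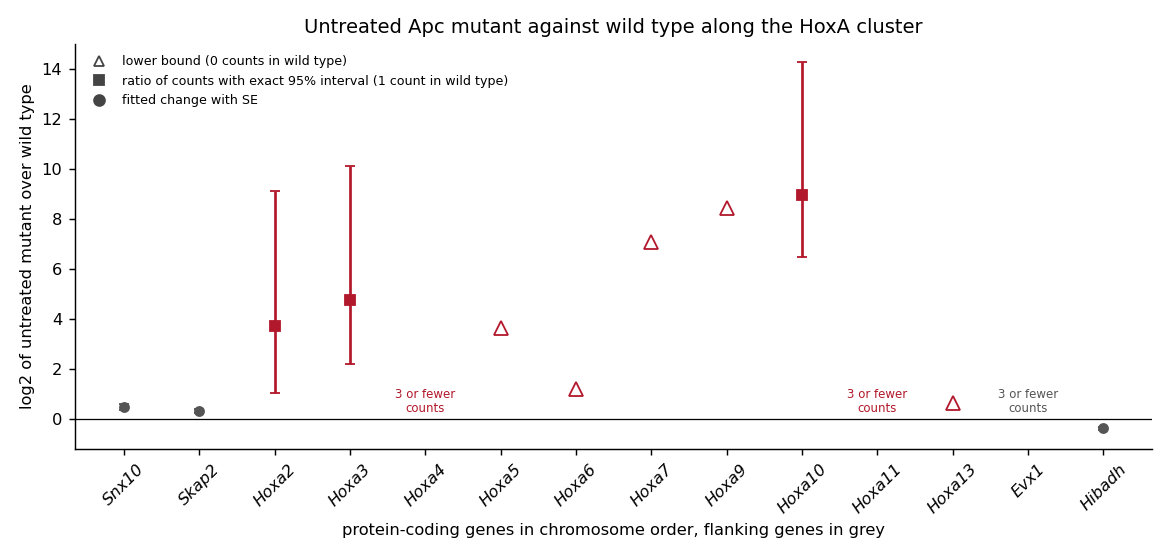
Difference between untreated mutant and untreated wild type (2 libraries each) on a log2 axis for coding genes of HoxA and its flanks in chromosome order. Open triangles are lower bounds for genes with 0 reads in wild type, squares are ratios with exact 95% intervals for genes with 1 wild type read, and circles are fitted changes with their SE. Bounds and ratios peak from Hoxa7 to Hoxa10 and the flanking genes lie within 0.50 of zero.

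TALE cofactors were tested as a list of 11 chosen with earlier results known, of which 10 could be tested. In the mutant 6 were higher and 2 lower, with a median log2 change of 0.96 where that of all tested genes was 0.00, and where 62.5% of all tested genes were called and 32.4% were higher. Meis1, which binds together with Hoxa9, was counted 116 times against 1, a ratio of 90.6 with an exact interval of 15.9 to 3610. Its p-value is left out, because only the untreated mutant libraries carried Meis1 past the filter. Meis1 is 1 of the 6 higher genes, and its place among them is not read as support. Pbx4 (14.2 against 1.61 CPM, log2 change 2.97), Meis3 (1.51) and Tgif1 (1.38) were also higher, whereas Meis2 fell from 35.4 in wild type to 11.8 CPM in the mutant (log2 change -1.76). The list thus held members that moved in opposite directions.

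Among Cdx and ParaHox factors, the gut's own caudal-type regulators, 1 was higher and 2 were lower of the 3 tested. Their median log2 change was -1.71, where 62.5% of all tested genes were called and 32.4% were higher. Cdx2, the main intestinal Cdx factor, was at 199.9 and 152.7 CPM (log2 change 0.22), and Cdx1 at 17.3 and 50.4 CPM (-1.71) in mutant and wild type. Pdx1, a ParaHox factor of duodenum and pancreas, was at 0 in both mutant libraries and 44.2 CPM ± 6.45 in wild type, at least 368-fold lower. Cdx4, Gsx1 and Gsx2 had no reads in either.

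Retinoic acid receptors and enzymes, 13 genes with 10 tested, included 5 that were higher and 2 lower in the mutant, at a median log2 change of 1.38. With 62.5% of all tested genes called in this comparison, 7 of 10 is near the background. The retinol dehydrogenase Rdh10 was at 461.6 against 71.6 CPM (log2 change 2.52) and the receptor Rarg at 31.9 against 3.69 CPM (2.94). Rarb rose to 4.08 from 0.152 CPM, Aldh1a3, which makes retinoic acid, to 2.92 from 0.0458, and Cyp26b1, which degrades it, to 2.16 from 0.106 CPM. Aldh1a1, the most abundant synthesising enzyme of the list, fell to 168.9 from 329.3 CPM (log2 change -1.13). Synthesis and degradation genes were thus both among the higher ones.

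Polycomb and trithorax genes, which hold Hox clusters silent or active, gave 12 higher and 2 lower of 17 tested, with a median log2 change of 0.37, beside 62.5% called and 32.4% higher among all tested genes. All but 1 of these changes were under 2-fold, the exception being the Polycomb reader Cbx2 (79.1 against 25.8 CPM, log2 change 1.44, adjusted p = 2.69e-12, edgeR). Among those that passed the test, the Polycomb subunit Eed changed by -0.62, the trithorax methyltransferase Kmt2a by 0.38 and the demethylase Kdm6a by 0.47 on the log2 scale.

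Regional genes of the gut also differed between the untreated groups. All 4 genes chosen for proximal small intestine were lower in the mutant, where 4971 of all 16510 tested genes were lower. Onecut2 was at 0.810 against 291.3 CPM (log2 change -8.64), the hormone gene Cck at 0 against 23.3 CPM, at least 193-fold lower, Pdx1 as given above, and Gata4, the jejunal factor, at 168.5 against 192.6 CPM (-0.36). The median log2 change of these 4 was -10.14 as fitted and -8.06 with Pdx1 and Cck at their bounds. Of the ileal list, Osr2 was higher (26.1 against 0.484 CPM, log2 change 5.61), Slc10a2 lower (0.0431 against 0.423 CPM) and Fabp6 at 0 in both. Of the colonic list, Cdx2 was higher as given above and Aqp4 lower (17.5 against 132.7 CPM, -3.09). Car1 was too low to be tested. The ileal and colonic lists therefore pointed in both directions.

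**Figure D4:**
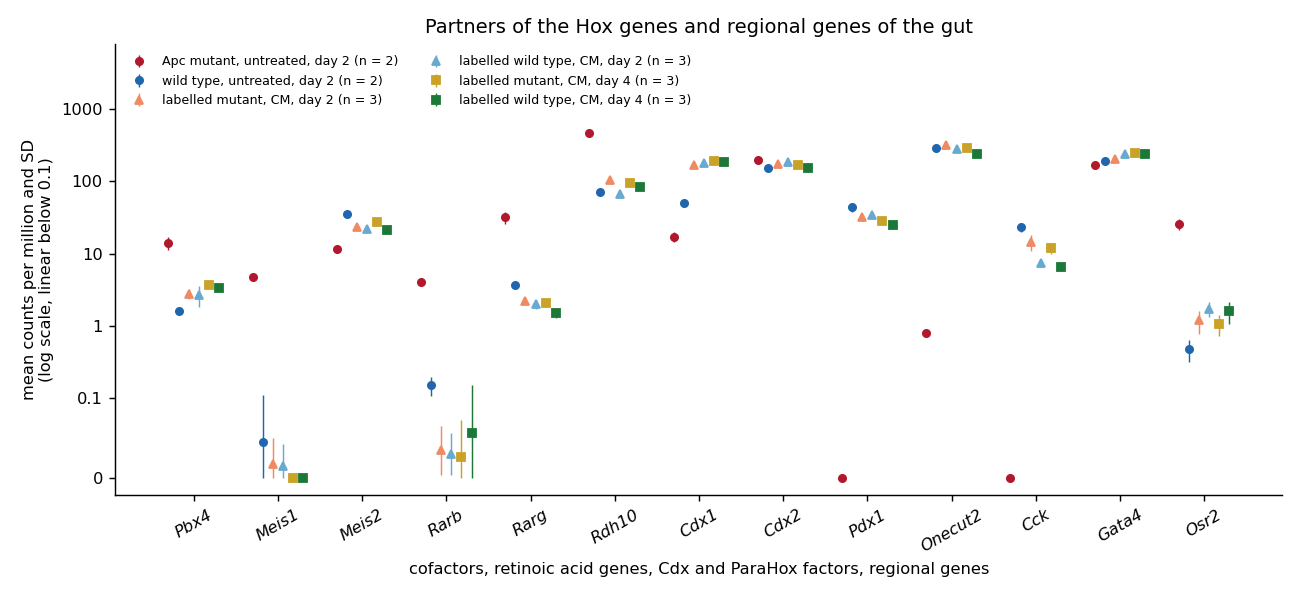
Mean CPM with SD of genes from the lists of cofactors, retinoic acid genes, Cdx and ParaHox factors and regional genes, in the 6 groups, on a log axis that is linear below 0.1 (CM, conditioned medium). Pbx4, Meis1, Rarb, Rarg, Rdh10 and Osr2 are highest in untreated mutant, where Pdx1 and Cck are at 0 and Onecut2 is at 0.810 CPM.

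Markers of other cell types were measured because gut mesenchyme expresses Hox genes strongly. The summed level of 10 fibroblast and mesenchyme markers was 337.1 to 360.0 CPM in untreated mutant and 6.005 to 6.69 CPM in untreated wild type, nearly all of it the intermediate filament gene Vim at 346.8 and 5.74 CPM. Col1a2, Col3a1, Dcn, Lum and Twist1, 5 of the 10, had 0 reads in all 4 untreated libraries, and Col1a1 and Pdgfra reached only 0.796 and 0.839 CPM in the mutant. Of the 4 tested, 3 were higher and 1, Pdgfrb, was lower, where 62.5% of all tested genes were called and 32.4% were higher. The median log2 change of these 4 was 3.20. Whether any of them passed the filter only through the untreated mutant libraries was not checked, so their direction is not read as a result about the list. Several of its defining genes were not detected in either genotype.

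Smooth muscle markers summed to 0.614 to 0.862 CPM in the mutant and 0.3603 to 0.550 in wild type, with 0 of 3 testable. Endothelial markers, 1 of 3 tested and lower, summed to at most 0.172 and 0.917 CPM, and immune markers, 1 of 5 tested and lower, to at most 0.230 and 2.52 CPM. Of 6 enteric neural and glial markers, 2 were tested, 1 being higher and 0 lower, and the glial factor Sox10 was at 0 in both groups. Their sum was 5.95 to 5.99 CPM in the mutant and 3.36 to 4.03 in wild type. Epithelial markers summed to 3641 to 3936 CPM in the mutant and 6560 to 7080 in wild type. Of the 6, 5 were lower, where 62.5% of all 16510 tested genes were called and 4971 were lower. Cdh1 was at 1083 and 1037 CPM, and none of the 6 had a total of 0 in either group, so the epithelial markers were present in both genotypes, though at a lower sum in the mutant. The part of these marker differences in the Hox result was not tested.

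In the CM libraries the Hox pattern was a different and weaker one, led by anterior HoxA genes. Hoxa3 had 53 to 114 reads per library, a median of 4.16 CPM, and made up 39.5% to 49.8% of the Hox reads of a group. Hoxa7, Hoxa9 and Hoxa10 together made up 2.02% to 3.63%. Hoxa4, a neighbour of Hoxa3 that patterns cervical vertebrae, ranged from 0.768 to 1.72 CPM (median 1.09) and had 1 read in all in the 4 untreated libraries. Hoxa2 (median 0.551 CPM), Hoxa13 (0.677 CPM) and Hoxd4 (0.469 CPM) followed.

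Per kilobase of merged exon, Hoxa3 led on day 2 (0.794 and 0.757 CPM under the mutant and wild type labels) with Hoxa4 next (0.659 and 0.604). On day 4 Hoxa4 led (0.843 and 0.755) with Hoxa3 next (0.625 and 0.512). Divided by the longest transcript, Hoxa3 led in all 4 CM groups at 1.19 to 1.84 CPM per kilobase, so the order of the pair depends on the length used. Exons of Hoxa3 are overlapped over 25.4% of their bases by genes on the opposite strand, including Hoxaas3, which had 24 to 54 reads per CM group, and over 8.01% on the same strand. Reads there could be counted as ambiguous, and the setting for strand is not given, so the level of Hoxa3 is less certain.

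Of the genes under the test's floor, Hoxd8 had 81 reads over the 12 CM libraries and 0 in the 4 untreated ones. Hoxc6 had 50 with CM, between 2 and 7 in every library. Hoxd13, a posterior gene of hindgut and limb, had 37, from 0 to 8 per library. Hoxa9 was counted 10 times and Hoxa10 5 times over all 12 CM libraries.

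The labels within CM were compared on day 2 as the design implies, mutant-labelled against wild type-labelled. Their treatment labels name the same medium, but if the titles name the medium's source this is a comparison of media and not of genotypes. Hoxa13 and Hoxa9 were higher and Hoxd4 lower under the mutant label, 3 of 11 tested where 16.7% of all tested genes were called. All 3 differences were small in reads, and Hoxa9 was among the tested genes only through the untreated mutant libraries. Hoxa13 had 9, 12 and 16 reads under the mutant label (0.443, 0.667 and 0.789 CPM) and 5, 6 and 4 under the wild type label (0.213, 0.293 and 0.190 CPM). The groups did not overlap, and the means of 0.633 CPM ± 0.175 and 0.232 ± 0.0537 (SD, n = 3) gave a log2 change of 1.40 ± 0.41 (SE) at an adjusted p of 0.0209 by edgeR.

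Hoxd4, a hindbrain gene and retinoic acid target, had 10, 7 and 14 reads under the mutant label and 19, 24 and 28 under the wild type label. Every mutant-labelled library was below every wild type-labelled one, with means of 0.524 CPM ± 0.153 and 1.11 ± 0.268 (SD, n = 3). The log2 change was -1.07 ± 0.36 (SE) at an adjusted p of 0.0419 by edgeR. On the same strand, 52.3% of the exon bases of Hoxd4 are shared with other genes, among them Hoxd3 and Gm28230, and reads there could be counted as ambiguous. Hoxa9 had 0, 3 and 4 reads under the mutant label and 0, 0 and 0 under the wild type label, so the groups overlapped at 0. It was at least 2.59-fold higher with an adjusted p of 0.0405 by edgeR, at a level of 0.121 CPM where the untreated mutant had 54.4. Without the untreated mutant libraries Hoxa9 would not have passed the filter, so this call is a description only.

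None of the 3 calls held in every setting, and no Hox gene was called without mutant-labelled replicate 3 or without wild type-labelled replicate 3. For Hoxa13 the adjusted p of edgeR's test was 0.108 without mutant replicate 3, 0.0688 without wild type replicate 1 and 0.0766 without wild type replicate 3. For Hoxd4 it was 0.109, 0.125 and 0.0535 without mutant replicates 1, 2 and 3, and 0.0962 and 0.146 without wild type replicates 2 and 3. For Hoxa9 it was 0.0916 and 0.158 without mutant replicates 2 and 3, and 0.101, 0.0880 and 0.0940 without wild type replicates 1, 2 and 3.

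On day 4 of CM none of the tested Hox genes passed between the labels, 0 of 11 by edgeR with 15.6% of all tested genes called, 0 under an unadjusted p of 0.05 and 0 by DESeq2. Hoxa13 had 22, 20 and 24 reads under the mutant label (0.989 CPM ± 0.0317, SD, n = 3) and 17, 13 and 20 under the wild type label (0.688 ± 0.138). Its groups did not overlap, with a log2 change of 0.49 ± 0.30 (SE) and an adjusted p of 0.303 by edgeR. Hoxd4 had 9, 9 and 8 reads against 12, 7 and 13, which overlap (log2 change -0.20 ± 0.42). Among the untested genes, Hoxb5 had 4, 4 and 3 reads under the mutant label and 0, 0 and 2 under the wild type label, without overlap and at no more than 0.198 CPM; it is named after its values were seen. Hoxa3 stood at 3.76 CPM ± 0.709 and 3.08 ± 0.445, and Hoxa4 at 1.34 ± 0.344 and 1.20 ± 0.240 (SD, n = 3), each with overlapping groups.

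**Figure D5:**
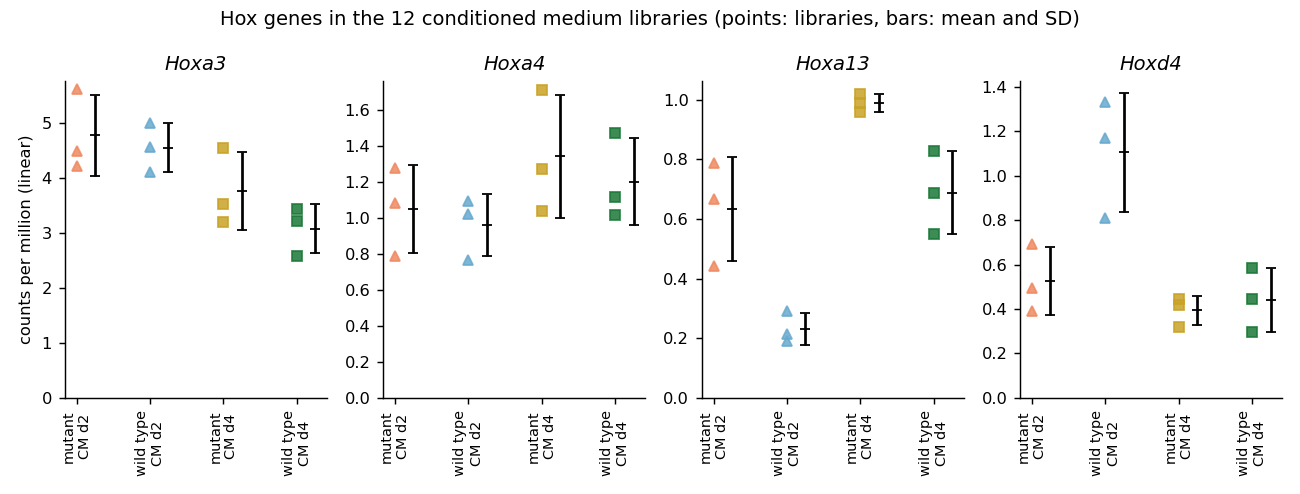
CPM of Hoxa3, Hoxa4, Hoxa13 and Hoxd4 in the 12 conditioned medium libraries by label and day, on linear axes that start at 0. Points are libraries and the bars beside them give the mean and SD (n = 3); Hoxa13 is lowest and Hoxd4 highest in the wild type-labelled libraries of day 2.

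Between days 2 and 4 under the wild type label 3 of 11 tested genes changed, where 24.1% of all tested genes were called. Hoxa13 rose from 0.232 to 0.688 CPM (log2 change 1.57 ± 0.39 SE, adjusted p = 0.00479, edgeR). Hoxd4 fell from 1.11 to 0.442 CPM (-1.28 ± 0.36, adjusted p = 0.0106). Hoxa3 fell from 4.55 to 3.08 CPM (-0.52 ± 0.17, adjusted p = 0.0306). The libraries of the 2 days did not overlap in any of the 3 genes, with Hoxa3 counted 107, 84 and 105 times on day 2 and 53, 81 and 94 on day 4. Day 4 replicate 1, the library that stood apart from its replicates, was the lowest of day 4 for Hoxa3 (2.58 CPM) and the highest for Hoxa13 (0.827 CPM). Without day 4 replicate 2 or day 2 replicate 3 Hoxd4 had an adjusted p of 0.0575 and 0.0509. Only 1 gene was called without day 2 replicate 3.

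Under the mutant label no Hox gene passed between days, 0 of 11 by edgeR and 0 by DESeq2, with 23.9% of all tested genes called. An unadjusted p under 0.05 was found for 2, Hoxa13 (0.633 to 0.989 CPM, log2 change 0.66 ± 0.31 SE, adjusted p = 0.134) and Hoxa9 (7 reads on day 2 and 1 on day 4, adjusted p = 0.107). Without mutant-labelled day 2 replicate 1 the count of called genes was 1. Hoxa3 changed from 4.78 to 3.76 CPM with overlapping libraries (-0.34 ± 0.17, adjusted p = 0.171).

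Whether the change with day differed between labels was tested as an interaction, which called 0 of 11 Hox genes by edgeR and 0 by DESeq2, against 2.13% of all tested genes. Only Hoxa9 had an unadjusted p under 0.05 (0.0274, adjusted 0.321), with 10 reads over all 12 CM libraries and 0 under the wild type label on day 2. The interaction of Hoxa13 was -0.91 ± 0.51 and that of Hoxd4 0.87 ± 0.56 (log2, SE), adjusted p = 0.503 and 0.590. The day changes called under the wild type label alone are therefore not shown to differ from those under the mutant label.

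Whether the difference between labels on day 2 was the same with and without CM was tested as a second interaction, which spans the 2 sets of libraries described above. It called 4 of 11 tested genes, all with the larger mutant excess without CM, where 53.1% of all tested genes were called. Hoxa7 was among the tested genes only through the untreated mutant libraries in which it is high, so its positive value was bound to follow and is a description. The log2 interactions were 11.33 ± 1.39 for Hoxa7, 7.71 ± 1.92 for Hoxa5, 4.38 ± 0.89 for Hoxa3 and 3.33 ± 1.23 for Hoxa2 (SE; adjusted p = 0.00160, 0.000191 and 0.0254 for the last 3, edgeR), those of Hoxa7 and Hoxa5 being fitted against an untreated wild type group with 0 reads and depending on the prior count. Hoxa2 missed the threshold without untreated mutant replicate 5 (adjusted p = 0.0688), without untreated wild type replicate 5 (0.112) and by DESeq2 (0.0590).

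Reads show the same for Hoxa7, with 247 and 274 against 0 and 0 without CM and 6, 1 and 4 against 4, 7 and 1 with it. For Hoxa3 they were 12 and 23 against 0 and 1 without CM, and 114, 76 and 91 against 107, 84 and 105 with it. Hoxa9 and Hoxa10 were among the 11 genes fitted and were not called, but their fitted interactions are not read. Hoxa9 had 0 wild type reads in both media, and Hoxa10 had 1 and 0. That neither was called therefore does not show an equal difference with and without CM. Their mutant-labelled counts were 650 and 686 without CM and 0, 3 and 4 with it for Hoxa9, and 294 and 348 against 0, 1 and 2 for Hoxa10.

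Other lists were compared between labels within CM, where 16.7% of all tested genes were called on day 2 and 15.6% on day 4. Of the 10 TALE genes tested 1 was higher and 2 were lower under the mutant label on day 2 and likewise on day 4, at median log2 changes of 0.02 and 0.05. None of these changes reached 2-fold. Meis1 had 2 reads in all 12 CM libraries. Retinoic acid genes gave 1 higher and 2 lower on day 2 and 1 and 0 on day 4, Polycomb and trithorax genes 0 and 2 and then 0 and 4, and Cdx and ParaHox factors 0 and 1 and then 0 and 0. Pdx1 was at 22.7 to 36.1 CPM and Onecut2 at 237.9 to 345.1 CPM in every CM library. Of the 4 proximal small intestine genes 1 was higher and 1 lower under the mutant label on day 2, and 2 were higher and 0 lower on day 4. Cck was at 14.3 CPM ± 3.53 under the mutant label and 7.50 ± 0.735 under the wild type label on day 2 (SD, n = 3; log2 change 0.90 ± 0.15 SE, adjusted p = 0.000192, edgeR).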

How the data were processed

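Per the submitters' processing notes, reads were handled with Trimmomatic 0.36, HISAT2 2.1.0 and HTSeq 0.6.1p1 on GRCm38. The authors deposited 1 file per library of raw counts per Ensembl gene, and the summary lines for reads not assigned to a gene entered neither library totals nor tests (reads outside features were 14.4% to 19.2% with conditioned medium and 4.78% to 7.32% without). Symbols, exon lengths and coordinates came from GENCODE M21 (GRCm38), which named 45143 of 46078 genes. CPM are counts divided by the library's gene counts. Changes were tested with edgeR 4.0.16 (R 4.3.3): filterByExpr, TMM scaling, quasi-likelihood fit of all 6 groups, Benjamini-Hochberg adjustment over 16510 genes, threshold 0.05. The pipeline was tested on simulated counts. A gene at 0 in a group was set to 3 counts over the group for bounds. Members and lists were chosen with earlier results of these data known. Passing the filter without the untreated mutant libraries was checked for all Hox genes, not for whole lists. Genes were described library by library where called with at least a 2-fold change, list genes named where changed at least 2-fold, others by counts; a few below that were named as known regulators after their values were seen. Alternatives were DESeq2 1.42.0, other scalings, filters, lengths, sample sets, a replicate block and leaving out each library. Some genes are not reported here.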

Additional observations from a re-analysis of the deposited data

Results flagged for a closer look

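The excess of the mutant label over the wild type label on day 2 differed between untreated and conditioned medium libraries in 4 of 11 tested Hox genes by the interaction term of the edgeR fit. Of all tested genes 53.1% were called by that term, so the count of Hox genes does not exceed the background. The log2 interaction was 3.33 for Hoxa2, 4.38 for Hoxa3, 7.71 for Hoxa5 and 11.33 for Hoxa7, each positive, that is, with the larger excess without conditioned medium. The values of Hoxa5 and Hoxa7 were fitted against 0 untreated wild type reads, depend on the prior count and measure no exact size. Hoxa7 was tested only because it is high in the untreated mutant, so its direction was bound to be positive. Hoxa7 had 521 reads in the untreated mutant libraries, 0 in untreated wild type, and 11 and 12 in the mutant-labelled and wild type-labelled libraries of day 2 in conditioned medium. Medium, line and library preparation cannot be told apart between these sets.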

How the results depend on the processing

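Of the Hox genes called with at least a 2-fold change, none reversed its direction under any alternative that gave an adjusted p. Across those alternative fits the call was kept 176 times and missed the threshold 26 times. The Hox genes called between untreated groups had 0 or 1 wild type reads, so a reversal was hardly possible there. Smaller changes, other genes and the order of genes by length were not part of that check. The number of Hox genes called between untreated groups (8) was 9 with no filter on low counts, 7 by DESeq2, 7 with only the groups compared, and 6 to 8 with 1 library left out. For the labels in conditioned medium on day 2 (3) it was 1 by DESeq2, which gave some genes no adjusted p, and 0 to 2 with 1 library left out. It was 0 to 1 between days under the mutant label (0), 1 to 3 under the wild type label (3) and 3 to 5 for the interaction of label and medium (4), and stayed at 0 for the labels on day 4 and the interaction of label and day.

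Over all genes, the calls for the labels on day 2 fell from 2755 to 1726 without mutant-labelled replicate 3, and those of the interaction of label and day rose from 351 to 551 with only the groups compared. Without a scaling factor the untreated comparison gave 6553 higher and 3900 lower genes in place of 5348 and 4971, at a median log2 shift of 0.17. With TMM library sizes the untreated mutant levels of Hoxa9, Hoxa10 and Hoxa7 were 43.5, 20.8 and 16.9 CPM.

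Libraries with the same replicate number did not deviate together (correlations from -0.15 to 0.053). With the number as a replicate block, 8 Hox genes were called between untreated groups, 2 between labels on day 2 and 2 between days under the wild type label. Hoxd4 then had a log2 change of -1.08 between labels (adjusted p = 0.0579).

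Depth limits the untreated wild type most, where 3 reads over both libraries equal 0.156 CPM. In conditioned medium, calls on single Hox genes rest on few reads, and each Hox call of day 2 was lost without at least 1 library.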
